A study of Homo sapiens with 11 samples.

Results

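The genes examined here encode 10 proteins that silence endogenous retroviruses through heterochromatin. They were taken by symbol from the table of total RNA: TRIM28, SETDB1, ATF7IP, MPHOSPH8, FAM208A, PPHLN1, MORC2, EHMT1, EHMT2 and SUV39H1. All 10 of these symbols were found, each once, among 58699 genes. HCT116 cells, a line from a human colorectal carcinoma, were used throughout. Controls received siLuc, an siRNA to luciferase, and the other cells siStau1, which targets Staufen1, known for binding RNA duplexes, so every group was transfected. Each siRNA was combined with the solvent DMSO or with decitabine (DAC), a cytidine analog that depletes DNA methyltransferases, which the labels give at 500 nM for 5 days. This made 4 groups, siLuc and siStau1 each with DMSO or DAC, of 2 total RNA libraries each. Another 3 libraries, of RNA bound by the J2 antibody to double-stranded RNA, give values for repeat elements and not for genes, and were not used here.

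Endogenous retroviruses are kept silent by methylation of histone H3 at lysine 9 (H3K9) and by DNA methylation. KRAB zinc finger proteins bind retroviral sequences and recruit TRIM28 (KAP1), the scaffold that brings the methyltransferase SETDB1, which ATF7IP stabilises in the nucleus. The HUSH complex is a further route to the same enzyme. Its chromodomain subunit MPP8 (gene MPHOSPH8) reads methylated H3K9, TASOR (gene FAM208A) holds the complex together, and periphilin (gene PPHLN1) binds RNA, while the ATPase MORC2 compacts the chromatin that HUSH marks. EHMT1 (GLP) and EHMT2 (G9a) work as a pair that adds the lower methylation states of H3K9, and SUV39H1 adds the trimethyl mark, above all at pericentromeric repeats. Inhibitors of DNA methylation are known for raising retroviral RNA.

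The deposited value is FPKM, fragments scaled to gene length and library size, with 1 value for each group and none for each library. The spread between libraries and the depth are therefore unknown, and no error can be attached to any level below. A gene is called where the authors' deposited q-value is under 0.05. Sizes are given as log2 ratios after 0.1 FPKM was added to both groups. STAU1, the target of the siRNA, had 35.5 and 33.7 FPKM in siLuc cells (DMSO, then DAC), and 29.98 and 27.1 FPKM in siStau1 cells. It was not called in either siStau1 against siLuc comparison, with log2 ratios of −0.24 in DMSO and −0.31 in DAC and q-values of 0.767 and 0.685 in the authors' deposited table. A knockdown is therefore not shown by these values, and siStau1 stands below for the label of the groups. All 6 epithelial markers (EPCAM, CDH1, KRT8, KRT18, KRT19 and CLDN4) were above 1 FPKM in every group. Their summed level went from 2630 FPKM under DMSO to 8249 under DAC in siLuc cells, and from 2170 to 5968 in siStau1 cells. In the authors' deposited table KRT19 was called higher with DAC in both arms, KRT18 higher in siStau1 and EPCAM lower in siLuc. The 8 markers of immune, endothelial, stromal and liver cells summed to 3.46 and 1.81 FPKM in the DMSO groups of siLuc and siStau1, and to 27.8 and 14.8 FPKM in their DAC groups. Only CD68 and COL1A1 reached 1 FPKM in the DAC groups. CD68 was not called with DAC (q-values 0.212 in siLuc and 0.129 in siStau1, authors' deposited table). PECAM1, under 1 FPKM in siLuc DAC, was called higher with DAC in siLuc (q-value 0.00162, authors' deposited table). In siStau1, PTPRC and COL1A1 were called higher with DAC (q-values 0.00162 and 0.0201, authors' deposited table), PTPRC staying under 1 FPKM. KRT19, PECAM1 and PTPRC were also called higher in siStau1 DAC against siLuc DMSO. The leukocyte gene PTPRC and the collagen gene COL1A2 were listed at 0 in both DMSO groups, and the part of all these markers in the results with DAC was not tested.

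The promoters of 3 HUSH genes are shown first because both called genes belong to this complex and because CpG dinucleotides are where decitabine lowers methylation. Each window runs from 250 bases before to 50 bases after the RefSeq start (GRCh38.p14), 5′ to 3′ on the strand of the gene, with every CpG (letters CG, which read the same on both strands) in capitals. MPHOSPH8 lies on the plus strand (chr13:19633409-19633708), FAM208A, which RefSeq names TASOR, on the minus strand (chr3:56683188-56683487), and MORC2 on the minus strand (chr22:30968725-30969024).
MPHOSPH8: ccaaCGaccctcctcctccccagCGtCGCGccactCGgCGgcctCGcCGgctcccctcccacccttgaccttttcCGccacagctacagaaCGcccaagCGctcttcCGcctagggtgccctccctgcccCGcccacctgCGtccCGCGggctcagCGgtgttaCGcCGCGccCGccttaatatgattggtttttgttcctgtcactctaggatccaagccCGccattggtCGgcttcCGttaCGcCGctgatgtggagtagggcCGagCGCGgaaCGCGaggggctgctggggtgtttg
FAM208A: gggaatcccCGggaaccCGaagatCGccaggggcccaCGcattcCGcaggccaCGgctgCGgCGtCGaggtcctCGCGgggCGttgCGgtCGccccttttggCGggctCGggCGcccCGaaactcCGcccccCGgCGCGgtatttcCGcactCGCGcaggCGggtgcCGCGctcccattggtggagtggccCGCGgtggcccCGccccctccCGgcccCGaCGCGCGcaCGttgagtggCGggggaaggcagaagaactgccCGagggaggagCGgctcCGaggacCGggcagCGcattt
MORC2: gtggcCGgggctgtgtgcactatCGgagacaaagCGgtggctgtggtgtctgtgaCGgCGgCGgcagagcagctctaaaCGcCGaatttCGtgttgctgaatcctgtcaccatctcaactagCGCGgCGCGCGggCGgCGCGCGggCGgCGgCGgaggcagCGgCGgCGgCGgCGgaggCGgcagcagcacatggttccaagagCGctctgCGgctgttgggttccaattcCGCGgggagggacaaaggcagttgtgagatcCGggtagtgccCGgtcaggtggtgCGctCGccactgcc
These windows hold 31, 43 and 35 CpG dinucleotides in that order. Over all 35116 RefSeq windows the median was 14, and 20.7%, 4.98% and 14.1% of windows had at least as many as MPHOSPH8, FAM208A and MORC2. Of the 10 genes, 9 were matched to a window, taking the start nearest to that of the gene in GENCODE 29. For PPHLN1 it lay 87720 bases away. For MORC2 it lay 476 bases away, so the window shown is wholly upstream of the GENCODE gene. The 9 windows held from 7 CpG dinucleotides in SUV39H1 to 51 in EHMT1. All but SUV39H1 were above the median of all windows. RefSeq gives more than 1 window for SETDB1, SUV39H1, ATF7IP, FAM208A and PPHLN1, and their other windows are not described here. At least 1 CpG was present in 96.0% of all windows. The windows of the called genes MPHOSPH8 and FAM208A and that of MORC2, which had a higher value under DAC, were thus all above the median. Methylation itself was not measured.

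In control cells, the RNA of the HUSH subunits MPHOSPH8 and FAM208A fell with DAC, both being called in the authors' deposited table, and the other 8 genes were not called. In bulk RNA, fewer cells of a type and less RNA per cell cannot be told apart. Of 17504 genes tested, 13.5% were called in this comparison, 8.71% higher and 4.78% lower with DAC, against 0 of the 10 higher and 2 of the 10 lower. Of the 10 genes, 5 had a higher and 5 a lower value with DAC, and the median log2 ratio was 0.0074, against 0.079 over the 12447 genes that reached 1 FPKM in both groups. Single genes ranged from −1.87 to 0.96. At a q-value under 0.01, 1 of the 10 was left in the authors' deposited table, with 7.97% of genes tested, and at an unadjusted p under 0.05 there were 3, with 28.9%. Adjusting within the comparison gave the count of 2 again, with 16.8% of genes tested.

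**Figure D1:**
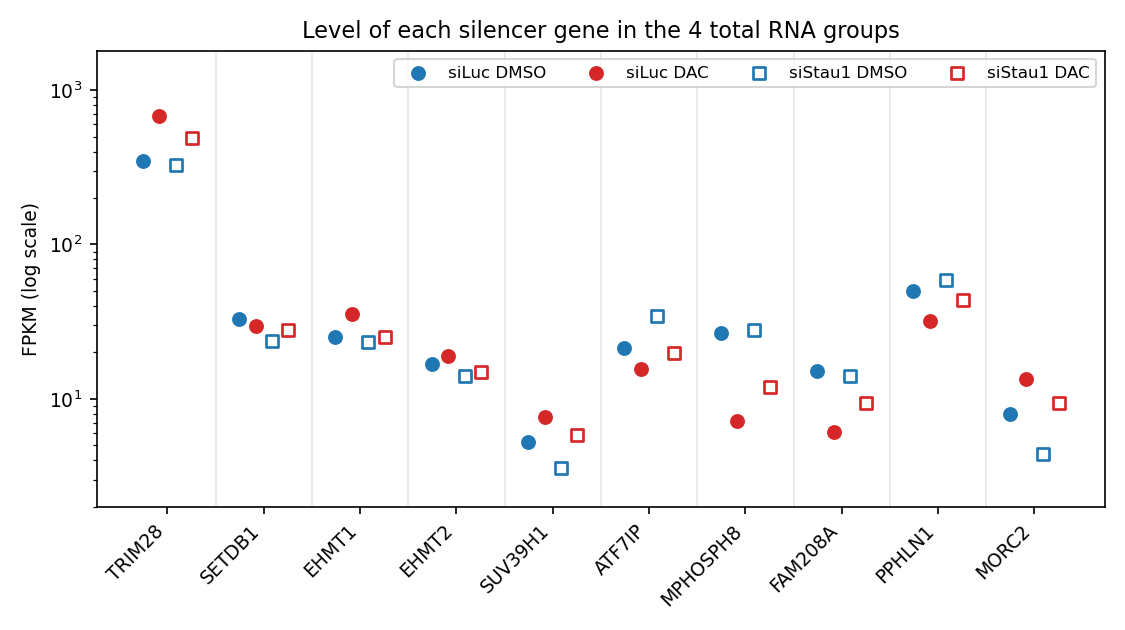
FPKM on a log scale of each of the 10 genes in the 4 total RNA groups, with filled circles for siLuc, open squares for siStau1, blue for DMSO and red for DAC. Each point is the authors' single value for a group of 2 libraries, so no error bars can be drawn. TRIM28 lies above all other genes in every group, and both DAC values of MPHOSPH8 and FAM208A lie below both DMSO values.

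MPHOSPH8 (ENSG00000196199.13, chromosome 13, 19633681 to 19673459, GRCh38) had 26.6 FPKM under DMSO and 7.20 under DAC in siLuc cells, and 27.8 under DMSO and 12.0 under DAC in siStau1 cells. Both DMSO groups were high and both DAC groups low. The log2 ratio of DAC over DMSO was −1.87 in siLuc, a level 3.70 times lower (q-value 0.00732, authors' deposited table). It was −1.21 in siStau1, where the q-value in the authors' deposited table was 0.236 and the unadjusted p was 0.0382. No other annotated gene overlaps MPHOSPH8.

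FAM208A (ENSG00000163946.13, chromosome 3, 56620133 to 56683237), the scaffold of HUSH, had 15.2 and 6.10 FPKM in siLuc cells (DMSO, then DAC), and 14.1 and 9.44 FPKM in siStau1 cells. Its log2 ratio with DAC was −1.30 in siLuc (q-value 0.0343, authors' deposited table). In siStau1 it was −0.58 and not called (q-value 0.480, authors' deposited table). Both DAC values were below both DMSO values, and, as for MPHOSPH8, the lowest was in siLuc DAC. The gene overlaps 1686 bases of CCDC66 on the opposite strand, which with DAC went from 19.4 to 7.55 FPKM in control cells and from 21.0 to 7.69 FPKM in siStau1 cells. Whether reads were counted by strand is not given in the sources used here, so reads in that stretch cannot be told apart.

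PPHLN1 (ENSG00000134283.17, chromosome 12, 42238447 to 42459715), the RNA-binding subunit, was the most abundant HUSH gene, with 50.1 FPKM under DMSO and 31.7 under DAC in siLuc cells, and 58.5 under DMSO and 43.9 under DAC in siStau1 cells. Its log2 ratio with DAC was −0.66 in siLuc and −0.41 in siStau1, called in neither (q-values 0.477 and 0.697 in the authors' deposited table). The gene shares 14041 bases with ZCRB1 on the opposite strand, which had 45.2 FPKM under DMSO and 9.56 under DAC in control cells, and its values are uncertain for the same reason.

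MORC2 (ENSG00000133422.12, chromosome 22, 30925130 to 30968298), the ATPase that works with HUSH, had ratios above 0 with DAC where the 3 core subunits had ratios below 0. It had 7.99 and 13.5 FPKM in siLuc cells (DMSO, then DAC), and 4.41 and 9.38 FPKM in siStau1 cells. Each DAC group was above both DMSO groups. The log2 ratio was 0.74 in siLuc and 1.07 in siStau1, with q-values of 0.543 and 0.270 in the authors' deposited table, so the gene was called in neither arm.

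The order of levels per length within the complex was not the same in all groups. In siLuc DMSO the order was PPHLN1, MPHOSPH8, FAM208A and MORC2, with 3.34 times as much MPHOSPH8 as MORC2. In siLuc DAC the order was PPHLN1, MORC2, MPHOSPH8 and FAM208A, and MORC2 had 1.87 times the FPKM of MPHOSPH8. In siStau1 the order of siLuc DMSO was found with DMSO and with DAC, and MPHOSPH8 stood 6.31 times and 1.28 times above MORC2. PPHLN1 stood above MPHOSPH8 by 1.88 times under DMSO and 4.41 times under DAC in siLuc cells, and by 2.103 and 3.67 times in siStau1 cells. The summed FPKM of the 3 core subunits was 92.0 under DMSO and 45.05 under DAC with siLuc, and 100.5 and 65.3 with siStau1. Whether neighbours in these orders differ beyond the spread of libraries cannot be said. The orders and sums are also not centred for GC content. With DAC in siLuc, protein-coding genes of like GC content had median log2 ratios of −0.95 for FAM208A, −0.59 for PPHLN1, −0.44 for MPHOSPH8 and 0.16 for MORC2.

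TRIM28 (ENSG00000130726.11, chromosome 19, 58544091 to 58550722), the KRAB corepressor, was by far the most abundant of the 10 genes. It had 349 FPKM under DMSO and 679.7 under DAC in siLuc cells, and 328 under DMSO and 486 under DAC in siStau1 cells. Both DAC values were above both DMSO values, and in siLuc DMSO it exceeded 97.7% of protein-coding genes with at least 1 FPKM. The log2 ratio with DAC was 0.96 in siLuc (unadjusted p 0.0233, q-value 0.172 in the authors' deposited table) and 0.57 in siStau1 (q-value 0.654), so neither was called. TRIM28 had 10.6 times the FPKM of SETDB1, the enzyme it recruits, in siLuc DMSO and 23.0 times in siLuc DAC. These ratios are not centred for GC content. With DAC in siLuc, protein-coding genes of like GC content had a median log2 ratio of 1.07 for TRIM28 and 0.16 for SETDB1.

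SETDB1 (ENSG00000143379.12, chromosome 1, 150926263 to 150964744), the methyltransferase shared by the TRIM28 and HUSH routes, varied least but for EHMT2. It had 33.1 and 29.5 FPKM in siLuc cells (DMSO, then DAC), and 23.6 and 28.1 FPKM in siStau1 cells, so its highest group exceeded its lowest by 1.40 times. SETDB1 also overlaps 4162 bases of CERS2 on the opposite strand, with 53.2 to 65.7 FPKM. The log2 ratio with DAC was −0.17 in siLuc and 0.25 in siStau1, the only change of sign between the arms among the 10 genes, with q-values of 0.925 and 0.898 in the authors' deposited table. Its cofactor ATF7IP (ENSG00000171681.12, chromosome 12, 14365632 to 14502935) had 21.2 FPKM under DMSO and 15.7 under DAC in siLuc cells, and 34.2 under DMSO and 19.9 under DAC in siStau1 cells. Each DAC value of ATF7IP was below both DMSO values, with log2 ratios of −0.43 and −0.78 and q-values of 0.828 and 0.657 in the authors' deposited table. ATF7IP exceeded SETDB1 in siStau1 DMSO alone, by 1.45 times.

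The partners EHMT1 and EHMT2 had small ratios. EHMT1 (ENSG00000181090.20, chromosome 9, 137618963 to 137870016) had 25.0 and 35.3 FPKM in siLuc cells (DMSO, then DAC), and 23.3 and 25.3 FPKM in siStau1 cells. EHMT2 (ENSG00000204371.11, chromosome 6, 31879759 to 31897687) had 16.8, 19.0, 14.2 and 14.9 FPKM in the same order, and its highest value was 1.34 times its lowest. EHMT1 had more FPKM than EHMT2 in every group. Their log2 ratios with DAC were 0.50 and 0.18 in siLuc and 0.12 and 0.069 in siStau1, with q-values from 0.675 to 0.9496 in the authors' deposited table. SUV39H1 (ENSG00000101945.16, chromosome X, 48695554 to 48709012) was the scarcest of the methyltransferases, with 5.27 FPKM under DMSO and 7.63 under DAC in siLuc cells, and 3.56 under DMSO and 5.81 under DAC in siStau1 cells. Its log2 ratios were 0.52 and 0.69, with q-values of 0.540 and 0.436 in the authors' deposited table. None of the 4 methyltransferase genes was called with DAC in either arm.

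In siStau1 cells, the authors' deposited table called 0 of the 10 genes with DAC, where 7.46% of 16979 genes tested were called. At an unadjusted p under 0.05 there were 2 genes, MPHOSPH8 and MORC2, with 19.0% of all genes tested. The signs were those of siLuc for 9 of 10 genes, SETDB1 being the exception. The arms share no library, so these are separate values. The log2 ratio with DAC was nearer 0 in siStau1 than in siLuc for 6 of 10 genes. The difference, siStau1 minus siLuc, was 0.73 for FAM208A and 0.66 for MPHOSPH8, the largest of the 10, and ranged from −0.39 to 0.42 for the rest. Its median was 0.21, against 0.0012 over genes with at least 1 FPKM in all groups. Without centring for GC content, the difference was below 0 for TRIM28, EHMT1, EHMT2 and ATF7IP. A call in siLuc and none in siStau1 does not show that the arms differ, and without values per library this difference was not tested.

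**Figure D2:**
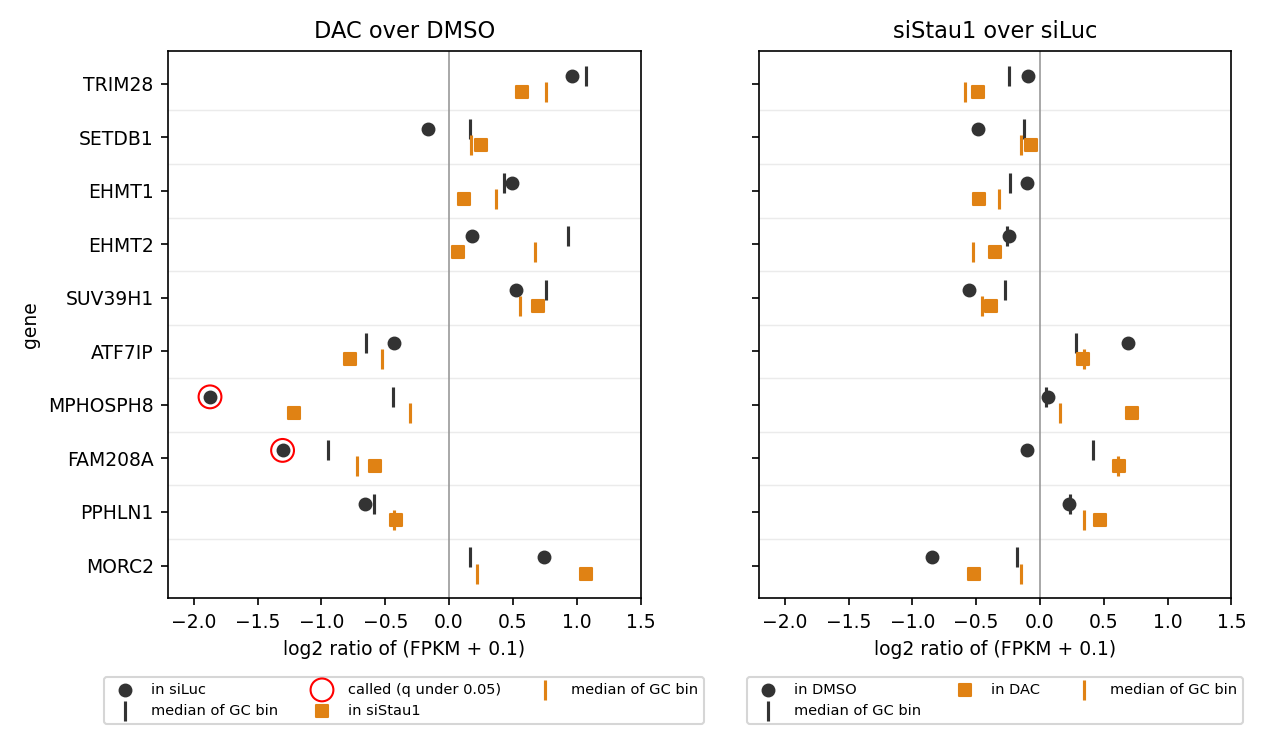
Log2 ratios of FPKM (pseudocount 0.1) of each gene for DAC over DMSO (left) and siStau1 over siLuc (right), with 1 symbol for each arm, and vertical ticks for the median of protein-coding genes of like GC content. Red rings mark the 2 values called by the authors, MPHOSPH8 at −1.87 and FAM208A at −1.30. The MPHOSPH8 values with DAC lie far to the left of their ticks, while those of PPHLN1 lie close to theirs.

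The log2 ratios with DAC tended to be higher in genes of higher GC content, among these genes and among protein-coding genes at large. GC content, taken from the longest GENCODE 29 transcript, was 36.002% in FAM208A, 40.2% in ATF7IP, 40.9% in PPHLN1, 44.1% in MPHOSPH8, 50.9% in SETDB1, 51.4% in MORC2, 53.5% in EHMT1, 57.6% in SUV39H1, 60.9% in EHMT2 and 63.7% in TRIM28. The 4 genes of lowest GC content had lower values with DAC in both arms. Across the 10 genes Spearman's rho between GC content and the log2 ratio was 0.81 for DAC in siLuc and 0.66 in siStau1, given as a description of points that share libraries. Over the 10953 protein-coding genes that reached 1 FPKM in both groups, rho for DAC in siLuc was 0.66. These genes were therefore sorted into 20 bins of GC content, and the median log2 ratio of the bin was set beside each gene.

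Set against their bins, MPHOSPH8 lay farther from the median than FAM208A. For MPHOSPH8 the bin median was −0.44 with DAC in siLuc, which left −1.44, and 3.47% of the genes in its bin had a lower ratio. In siStau1 the bin median was −0.30, which left −0.91, with 6.75% of its bin lower. For FAM208A the bin median in siLuc was −0.95, which left −0.36, and 29.8% of its bin was lower. In siStau1 FAM208A was 0.14 above its bin median of −0.72. The value of TRIM28 in siLuc, 0.96, lay 0.11 below a bin median of 1.07, so its sign turned on this centring. With GC content averaged over all transcripts it lay 0.11 above and kept its sign. MORC2 lay above its bin median in both arms, by 0.58 in siLuc and 0.85 in siStau1, with 77.1% and 91.8% of its bin lower. EHMT2 lay below its bin median by 0.75 in siLuc and 0.60 in siStau1, so its difference between the arms turned above 0. With GC content averaged over all transcripts its centred ratios were −0.55 and −0.57, and that difference stayed below 0. After centring by GC content of the longest transcript 4 of the 10 genes changed sign for DAC in siLuc (TRIM28, EHMT2, SUV39H1 and ATF7IP). In siStau1 5 did so (TRIM28, EHMT1, EHMT2, FAM208A and PPHLN1). With GC content averaged over all transcripts EHMT1 took the place of TRIM28 in siLuc, and the same 5 changed in siStau1. MPHOSPH8 and MORC2 kept their sign with DAC in both arms under each of the 6 settings tried. So did SETDB1, which stayed below 0 in siLuc and above 0 in siStau1. How GC content came to move with the groups was not tested.

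**Figure D3:**
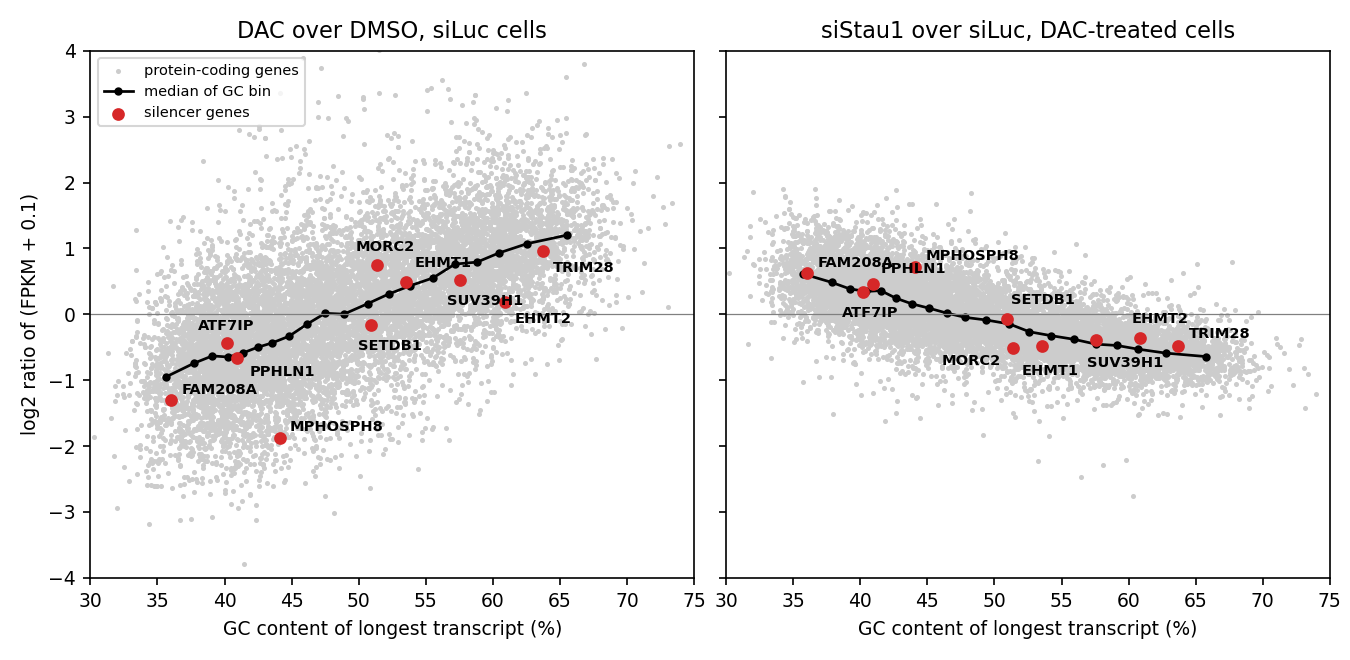
GC content of the longest transcript (percent) against the log2 ratio of FPKM (pseudocount 0.1) for DAC over DMSO in siLuc cells (left) and siStau1 over siLuc in DAC-treated cells (right). Grey points are protein-coding genes with at least 1 FPKM in the groups shown, black points joined by a line the medians of 20 GC bins, and red points the 10 silencer genes; points beyond the axes are not shown. MPHOSPH8 lies 1.44 below the line on the left and 0.56 above it on the right.

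Without DAC, none of the 10 genes was called between the siRNAs. In siStau1 DMSO against siLuc DMSO, 0 of 10 were called in the authors' deposited table and 0 had an unadjusted p under 0.05. Of 15893 genes tested, 0.799% were called and 4.30% had such a p. The largest differences were in MORC2, from 7.99 to 4.41 FPKM (log2 ratio −0.84, q-value 0.473 in the authors' deposited table), and in ATF7IP, from 21.2 to 34.2 FPKM (log2 ratio 0.69, q-value 0.759). All 4 methyltransferases had lower values, with log2 ratios of −0.49 for SETDB1, −0.10 for EHMT1, −0.24 for EHMT2 and −0.56 for SUV39H1. MPHOSPH8, FAM208A and TRIM28 had log2 ratios of 0.062, −0.10 and −0.092. After centring within GC bins TRIM28 (0.15), EHMT1, EHMT2 and PPHLN1 changed sign, and FAM208A stood at −0.52, with 11.5% of its bin lower. With GC content averaged over all transcripts MPHOSPH8 changed sign too. The median of the 10 genes was −0.10, against −0.017 over 12552 genes with at least 1 FPKM.

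In siStau1 DAC against siLuc DAC, the authors' deposited table likewise held 0 called genes of 10, and 0 with an unadjusted p under 0.05. Of 17263 genes tested, 0.904% were called and 6.95% had such a p. MPHOSPH8 went from 7.20 FPKM in siLuc DAC to 12.0 in siStau1 DAC (log2 ratio 0.72, q-value 0.441 in the authors' deposited table). FAM208A went from 6.10 to 9.44 FPKM (0.62, q-value 0.442) and PPHLN1 from 31.7 to 43.9 FPKM (0.47, q-value 0.640). The 3 core HUSH genes thus had higher and MORC2 (−0.52) a lower value in siStau1 DAC. Centring within GC bins left 0.56 for MPHOSPH8, 0.12 for PPHLN1 and 0.0080 for FAM208A, which turned to −0.068 with GC content averaged over all transcripts. The siLuc DAC group enters both this comparison and that of DAC in siLuc, so the low siLuc DAC values of MPHOSPH8 and FAM208A bear on both. The 4 methyltransferases were lower, from −0.48 in EHMT1 to −0.069 in SETDB1, and TRIM28 had a log2 ratio of −0.48. Within GC bins the signs of TRIM28, SETDB1, EHMT2, SUV39H1 and ATF7IP changed. With GC content averaged over all transcripts SETDB1 kept its sign, at −0.090. The median over all genes with at least 1 FPKM was itself −0.11 here, against −0.21 for the 10 genes, and relative to it SETDB1 also changed sign.

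With both treatments against neither, siStau1 DAC over siLuc DMSO, the authors' deposited table called 0 of 10 genes, where 4.98% of 16909 genes tested were called. At an unadjusted p under 0.05 there was 1, with 13.6% of genes tested: MPHOSPH8 (log2 ratio −1.15, p 0.00985, q-value 0.0983). The other 9 log2 ratios lay between −0.68 in FAM208A and 0.48 in TRIM28. Within GC bins 5 of the 10 genes changed sign (TRIM28, EHMT1, SUV39H1, ATF7IP and PPHLN1), TRIM28 going to −0.019. With GC content averaged over all transcripts TRIM28 was at 0.11 and kept its sign.

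The wider silencing machinery was read from 6 lists that hold none of the 10 genes. Of 16 corepressors and chromatin remodellers, 11 had lower and 5 higher values with DAC in siLuc. Of these 16, 4 were called lower and 0 higher, where 4.78% and 8.71% of all genes tested were so called. ATRX, the remodeller that places histone H3.3 at repeats, went from 26.1 to 7.60 FPKM (q-value 0.00293 in the authors' deposited table). SMARCAD1, a remodeller that works with TRIM28, went from 19.2 to 7.44 FPKM. The other called genes were the histone deacetylase HDAC2, from 101.6 to 45.9 FPKM, and the histone chaperone RBBP7, from 116 to 46.9 FPKM. In siStau1, 13 of the 16 had lower values. There 2 were called, both lower, where 7.46% of all genes tested were called in either direction. ATRX went from 45.1 to 18.5 FPKM and HDAC2 from 137 to 66.5 FPKM. ATRX and SMARCAD1 fall in the same bin of low GC content as FAM208A, whose median with DAC in siLuc was −0.95. Under DAC these genes were called higher in siStau1 than in siLuc, a comparison with 0.904% of all genes tested called. ATRX had 18.5 against 7.60 FPKM and SMARCAD1 17.9 against 7.44 FPKM, which rests on the same siLuc DAC values. The median of this list was −0.64 for DAC in siLuc, against 0.079 over all genes, and −0.23 in siStau1, against 0.021. After centring within GC bins these medians were −0.48 and −0.34.

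**Figure D4:**
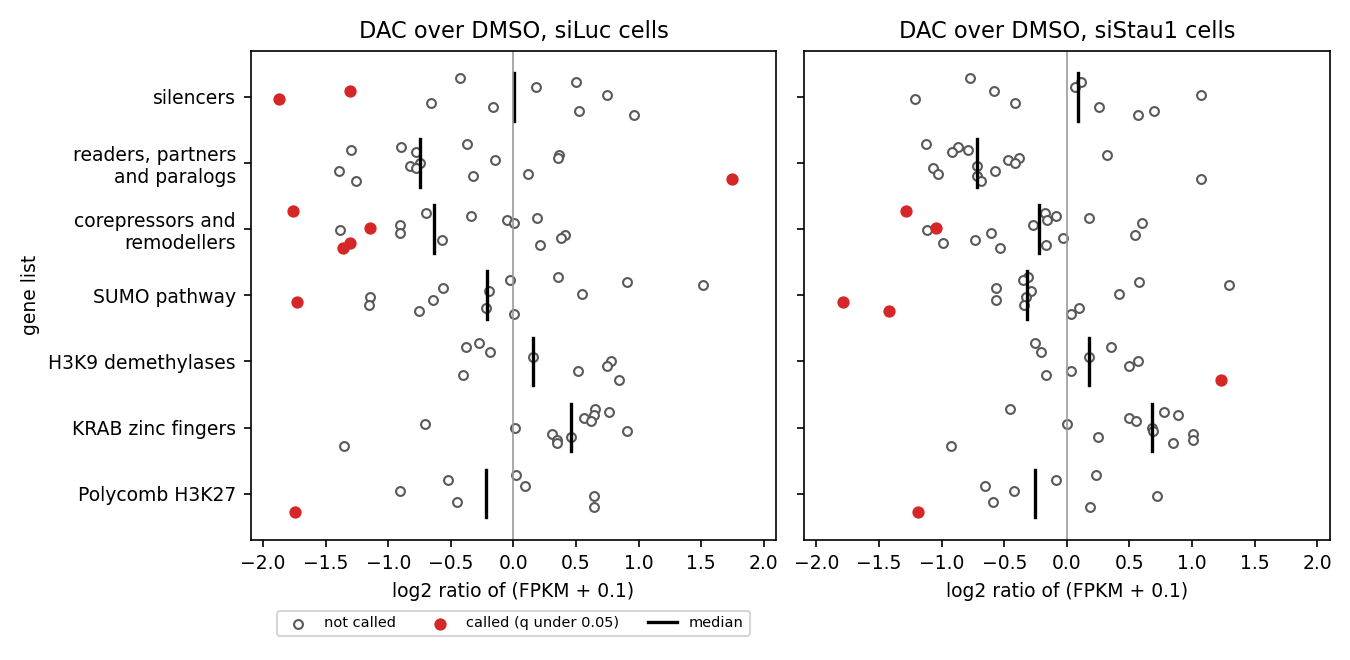
Log2 ratios of FPKM (pseudocount 0.1) for DAC over DMSO in siLuc cells (left) and siStau1 cells (right) for the 10 silencers and 6 lists of related genes, for genes that reached 1 FPKM in both groups. Each circle is 1 gene, red where called in the authors' deposited table, and vertical lines are medians. The medians of readers, partners and paralogs lie at −0.75 and −0.71, and those of KRAB zinc fingers at 0.46 and 0.68.

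Readers, partners and paralogs of the silencers numbered 15, among them the HP1 genes, which bind methylated H3K9. Over all genes tested, 13.5% were called with DAC in siLuc and 7.46% in siStau1. Only WIZ, a zinc finger partner of EHMT1 and EHMT2, was called with DAC in siLuc, rising from 1.51 to 5.27 FPKM (q-value 0.0343 in the authors' deposited table), and none was called in siStau1, where the log2 ratios ran from −1.13 in ATF7IP2 to 1.07 in WIZ. Of the 15, 11 had lower values with DAC in siLuc and 13 in siStau1, with medians of −0.75 and −0.71, which were −0.0081 and −0.20 after centring within GC bins. With DMSO, TRIM24, a relative of TRIM28, rose in siStau1 against siLuc from 4.68 to 12.4 FPKM (q-value 0.0413 in the authors' deposited table). In that comparison 0.799% of all genes tested were called. Of 14 genes of the SUMO pathway, whose modification of TRIM28 recruits SETDB1, UBA2, a subunit of the SUMO activating enzyme, fell with DAC in siStau1 from 149 to 55.6 FPKM (q-value 0.0474 in the authors' deposited table). Of 10 H3K9 demethylase genes, PHF8 rose with DAC in siStau1 from 3.70 to 8.81 FPKM (q-value 0.0321 in the authors' deposited table), and none was called in siLuc, where the log2 ratios ran from −0.40 in PHF2 to 0.84 in PHF8.

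Of 20 KRAB zinc finger genes, 16 were tested with DAC in siLuc and 3 were called higher, where 8.71% of all genes tested were called higher. All 3 started from a listed value of 0 in siLuc DMSO. These were ZFP57, which protects imprinted methylation, with 8.35 FPKM in siLuc DAC, ZNF534 with 1.76 FPKM and ZNF10 with 0.808 FPKM. ZFP57 was also called in siStau1, from 0 to 4.85 FPKM. Of the 13 KRAB genes that reached 1 FPKM in both groups, 11 had higher values with DAC in either arm. Their medians were 0.46 in siLuc and 0.68 in siStau1, and 0.79 in both arms after centring within GC bins. ZNF91, which binds SVA elements, had a lower value in both arms. Of 8 Polycomb genes, which serve the separate H3K27 mark, SUZ12 fell with DAC in siLuc from 18.9 to 5.58 FPKM and in siStau1 from 27.7 to 12.1 FPKM. With both treatments against neither, ZFP57 and ZNF534 were called higher and no gene of the other lists of the wider silencing machinery was called.

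Between the siRNAs most lists held no called gene, and their members are given by the range of log2 ratios of siStau1 over siLuc. In DMSO the corepressors and remodellers ran from −0.67 in CHAF1A to 0.79 in ATRX, and the lowest of the SUMO genes was PIAS4 at −0.59. The demethylases ran from −0.88 in PHF8 to 0.57 in KDM7A, the KRAB genes from −0.81 in ZNF611 to 0.75 in ZNF91 and the Polycomb genes from −0.27 in EZH2 to 0.54 in SUZ12. Under DAC the readers, partners and paralogs ran from −0.75 in WIZ to 0.91 in ZNF644, 13 of the 15 being above 0, and the SUMO genes from −0.80 in PIAS4 to 1.10 in SENP6. The demethylases ran from −0.49 in PHF8 to 0.26 in JMJD1C, the KRAB genes from −0.77 in ZFP57 to 1.18 in ZNF91 and the Polycomb genes from −0.65 in PHF19 to 1.10 in SUZ12.

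With both treatments against neither, the readers, partners and paralogs ran from −0.66 in CBX1 to 0.99 in WIZ, and the corepressors and remodellers from −0.85 in CHAF1A to 0.57 in RCOR1. The highest of the SUMO genes was PIAS4 at 0.71. The demethylases ran from −0.53 in PHF2 to 0.60 in KDM7A and the Polycomb genes from −0.69 in EZH2 to 0.59 in JARID2.

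Genes whose levels followed those of TRIM28 and SETDB1 most closely were found from log2 FPKM centred over the 4 groups, among 10685 protein-coding genes with at least 1 FPKM in every group. Nearest to TRIM28 were ZNF185, PRPF19 and HSPB1, at distances of 0.024, 0.028 and 0.045 on the log2 scale. PRPF19 had 28.5 FPKM under DMSO and 54.5 under DAC in siLuc cells, and 26.7 and 40.1 in siStau1 cells. Nearest to SETDB1 were NHP2, TIMM44 and C6orf52, at 0.020, 0.036 and 0.040, and NHP2 had 171 and 152 FPKM in siLuc cells, and 119.9 and 143 in siStau1 cells. With 4 values for each gene such likeness is a description only.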

How the data were processed

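Total RNA of HCT116 cells was measured in 4 groups of 2 libraries. The authors deposited FPKM values, 1 per gene and group, with p-values and q-values for 6 pairwise comparisons, in the layout of Cuffdiff per the file headers. The submitters' processing notes name HISAT2 2.1.0, Cuffdiff 2.2.1 and the build hg38, with no role or order. Recomputing showed that the deposited q-value is the Benjamini-Hochberg value over all 102180 tests, with a largest gap of 5.3e-07. A group had the same FPKM in every comparison for all genes but 1, ZNF468.

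Values were read for each group from its comparisons, and 5 comparisons are described. Log2 ratios use a pseudocount of 0.1, and medians over all genes use those with at least 1 FPKM in both groups. All 58699 gene identifiers were matched in GENCODE 29, which gave positions, overlaps, and the GC content of the longest transcript. Promoter windows come from RefSeq. Scripts ran in Python 3.11.15 with pandas 2.3.3, and the adjustment and GC centring were tested on simulated data. With 1 value per group, no test, spread or interval of this work could be computed. The labels do not say that the libraries came from separate cultures, so the authors' p-values may measure technical spread only.

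The 10 genes and the lists were chosen with earlier results of these data known. Named from the lists are the genes the authors called in a comparison, or, where none was called, those of highest and lowest log2 ratio, and for TRIM28 and SETDB1 the 3 nearest genes. Alternatives were other pseudocounts, scalings and q-value rules. The J2 libraries were left out because their values are for repeat elements. Results for 1 gene of the lists are not reported here.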

Additional observations from a re-analysis of the deposited data

How the results depend on the processing

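The number of called genes with DAC in siLuc was 2, and 1 (MPHOSPH8) at a q-value under 0.01. Adjustment within the comparison also gave 2 calls. At an unadjusted p under 0.05 there were 2 genes with DAC in siStau1 and 1 for both treatments against neither, against 0 called. The median log2 ratio of the 10 genes followed the scaling. Centring within GC bins moved it to −0.17 with DAC in control cells and −0.088 with DAC in siStau1 cells. Between the siRNAs it became 0.00056 under DMSO and 0.072 under DAC. With GC content averaged over all transcripts of a gene, a setting chosen after seeing the data, it was −0.13 for DAC in siLuc and −0.028 for siStau1 against siLuc under DAC. In that last comparison it was −0.100 when centred on the median of all genes and −0.070 when scaled to the sum over protein-coding genes, which also moved it to −0.0014 for both treatments against neither. A pseudocount of 1 or 0.01, or only genes with at least 10 FPKM, moved no median log2 ratio by 0.1. For the difference between the siRNA arms, no pseudocount or scaling did so. Of genes with at least 10 FPKM in every group, that difference was 0.42 for SETDB1 and 0.24 for PPHLN1. It was −0.39 for TRIM28, −0.38 for EHMT1, −0.11 for EHMT2 and −0.35 for ATF7IP. Of the genes left out, MPHOSPH8 and FAM208A were under 10 FPKM only with DAC (7.20 and 6.10 FPKM in siLuc), and these values enter the difference. The filter therefore cannot show whether the positive median difference of 0.21 depends on level. The called values of MPHOSPH8 and FAM208A kept their sign under every setting. No paired analysis was possible because the deposited table gives 1 value per group, and for the same reason no fit without single replicates was run. The depth of the libraries is unknown.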
